A study of Mus musculus with 2 samples.

Results

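The cells described here are the Cd209a-expressing type 2 conventional dendritic cells (cDC2) among CD45-positive cells sorted from B16F10 melanomas. They were chosen by their own counts of unique molecular identifiers (UMIs, 1 per captured transcript). A member barcode had at least 200 detected genes, at most 10% mitochondrial UMIs and at least 3 Cd209a UMIs. It also had fewer than 3 UMIs of Xcr1 and Clec9a together, fewer than 3 of Ccr7 and fewer than 3 of Siglech, which removes cDC1, migratory and plasmacytoid dendritic cells. C1qa, C1qb and C1qc together stayed under 0.2% of UMIs, Foxp3 was at 0, and at most 1 UMI of CD3 genes and 1 of CD79 genes was allowed. These limits kept 339 of 12815 filtered barcodes, 192 from the control and 147 from the library labelled knockout. The Cd209a level and the near absence of the excluded markers are therefore set by the choice and are no finding.

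Conventional dendritic cells take up antigen, carry it to lymph nodes and present it to T cells. cDC2 present mainly to CD4 T cells on MHC class II, and cDC1 are the main class for cross-presentation to CD8 T cells. Cd209a encodes a C-type lectin (a mouse relative of DC-SIGN) of cDC2 and of dendritic cells that arise from monocytes. Type I interferon binds the receptor IFNAR, which acts through the kinases JAK1 and TYK2 and the transcription factor complex ISGF3 on interferon-stimulated genes. USP18, itself induced by interferon, removes the ubiquitin-like protein ISG15 from its targets and restrains IFNAR signalling.

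The control library came from Usp18f/f mice, in which Usp18 is flanked by loxP sites. The library labelled knockout came from Usp18f/f LysM-Cre mice, which carry the same floxed alleles and also Cre expressed from the Lyz2 locus. Both groups were C57BL/6 hosts of subcutaneous B16F10 tumors, a mouse melanoma line, harvested at day 14. In each group 4 tumors were pooled and live CD45-positive cells were sorted into 1 droplet library (10x Genomics 3' chemistry). LysM-Cre is active in monocytes, macrophages and neutrophils and is known to act in only part of the dendritic cells, and the exons that it deletes are not given in the labels. With 1 library per group no comparison below has a replicate check, and no p-value is given. Intervals are 95% and cover counting error only.

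The libraries held 7754 and 6063 barcodes, control first, of which 7086 and 5729 passed the filters. A cDC2 cell had a median of 7563 UMIs (control) or 8286 UMIs (labelled knockout), and the summed cells held 1570954 and 1431691 UMIs. No barcode sequence of these cells occurred in both libraries. The pools differed in the sex of the cells. Control cDC2 numbered 26 cells with Xist but no Y-linked transcript (below, Xist cells) and 123 with Y-linked transcripts but no Xist (Y cells). In the library labelled knockout these numbered 123 and 11. Sex and group cannot be told apart in the whole sums, so ratios among Xist cells and among Y cells stand beside the results that they touch. One cell of the library labelled knockout, with 61524 UMIs, made up 4.3% of that library's cDC2 UMIs and held 960 of its 1023 UMIs of melanoma genes.

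Levels below are CPM, the UMIs of a gene scaled to 1000000 UMIs of the summed cDC2 cells of a library. A 3' UMI count does not grow with transcript length. A log2 ratio compares CPM + 5 in the library labelled knockout with CPM + 5 in the control for each of the 8560 genes with at least 20 UMIs over both libraries. A gene is called past 2-fold when this log2 ratio reaches 1 in size. Of all 8560 genes, 151 were higher past 2-fold (1.76%) and 55 were lower (0.643%), and their median log2 ratio was -0.003.

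cDC2 cells made up 2.71% of filtered control barcodes (exact Clopper-Pearson interval 2.34 to 3.11) and 2.57% in the library labelled knockout (2.17 to 3.01). Among cells that passed the cDC2, cDC1 or migratory dendritic cell limits, they were 46.3% of 415 and 43.9% of 335. These shares overlapped within counting error. Among Xist cells and among Y cells they differed, in opposite directions. Among Xist cells the cDC2 share was 1.66% of 1564 control barcodes and 3.35% of 3677 in the library labelled knockout, and among Y cells it was 4.44% of 2769 and 1.91% of 575. No interval is given for these shares, which leave out barcodes with both or neither kind of transcript. Neither was found in 561 of 1345 control B cells, which are shallower, against 39 of 192 control cDC2 cells.

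Usp18 (ENSMUSG00000030107, chr6:121245906-121270917, plus strand, GRCm38) went against the label. It stood at 28.0 CPM (20.4 to 37.6, 44 UMIs in 29 cells) among control cells and at 109 CPM (92.5 to 127, 156 UMIs in 54 cells) in the library labelled knockout, 3.89-fold higher (2.77 to 5.57). With every cell thinned to 1000 UMIs, 2.08% and 10.9% of cDC2 cells held a Usp18 UMI, against 1.14% and 0.716% of B cells, whose median depth was 1548 and 1827 UMIs. The 3' UMIs may lie outside the deleted exons, so this measures transcript ends and not the deletion. The log2 ratio was 1.15 in Xist cells and 1.47 in Y cells. Summed Usp18 was also higher in the other gates, with 16.3 and 52.3 CPM in cDC1, 8.49 and 71.8 CPM in migratory dendritic cells and 23.1 and 172 CPM in monocytes. It was at 19.8 and 72.4 CPM in macrophages and at 11.3 and 20.1 CPM in B cells, in which the thinned share was not higher.

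Lyz2 (ENSMUSG00000069516, chr10:117277331-117282321, minus strand, GRCm38), the lysozyme gene whose locus holds the Cre insertion, matched the labels. It stood at 1287 CPM in the control cDC2 cells (2022 UMIs in 125 of 192 cells) and at 4.19 CPM in the library labelled knockout (6 UMIs in 4 of 147 cells). In the control, 63 cells held 3 or more Lyz2 UMIs. The thinned share was 30.2% of control cDC2 cells against 8.36% of control B cells. B cells are a rough comparison for free RNA, which was not itself measured. Before thinning, 37 control B cells held 3 or more Lyz2 UMIs. Within the control cells the level was 5769 CPM where Ly6c2 had 3 or more UMIs and 826 CPM where Ly6c2 was at 0.

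The given markers other than Cd209a were high in these cells, apart from Flt3. Mgl2 and Clec10a, C-type lectins that bind galactose-type sugars, stood at 731 and 432 CPM in control cDC2 cells and at 620 and 369 CPM in the library labelled knockout. In cDC1, migratory dendritic cells and monocytes Mgl2 reached at most 54.1 CPM and Clec10a at most 26.2 CPM. Kmo, an enzyme of the kynurenine pathway, stood at 175 and 214 CPM, above cDC1 (79.9 and 122 CPM). Flt3, the receptor for the main dendritic cell growth factor, was low. It measured 84.7 and 51.0 CPM in cDC2, against 247 and 207 CPM in cDC1, and it was at 0 UMIs in monocytes, whose gate required that. No gate comparison here carries a test, because the gates were cut on transcripts of the same cells.

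**Figure D1:**
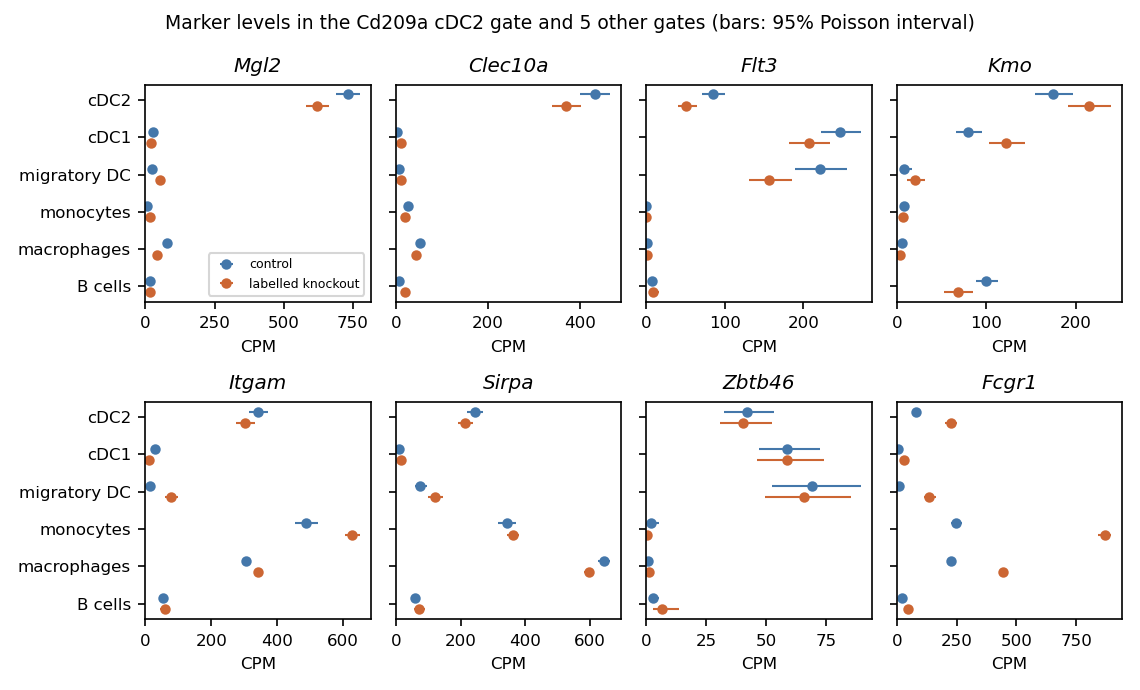
Level of 8 genes in the cDC2 gate and 5 other gates, in CPM of summed UMIs on linear axes that differ between panels, with exact 95% Poisson intervals. Points are 1 library per group, control in blue and labelled knockout in orange. Mgl2 and Clec10a are highest in cDC2, Flt3 is higher in cDC1, and Fcgr1 in cDC2 is 81.5 CPM (control) and 227 CPM (labelled knockout).

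The genes most above cDC1, migratory dendritic cells and monocytes, chosen by the smallest of the 3 ratios over both libraries, were Clec10a, Mgl2, Ffar2, Cd209d, Cdh1, Bex6, Klrd1, Cd7, Ifitm1 and Ddr1. Ffar2 encodes a receptor for short-chain fatty acids and stood at 97.4 and 83.1 CPM. Cdh1 encodes E-cadherin and stood at 73.2 and 90.1 CPM, against at most 5.21 CPM in those 3 gates. Klrd1, the CD94 chain of NK receptors, was at 391 and 467 CPM. Cd209d is a relative of Cd209a, and how reads were split between them was not examined. Of the genes associated with a T-bet-dependent subset of cDC2, Esam and Dtx1 were at 0 UMIs in both libraries, Clec4a4 had 1 UMI in each, and Tbx21 had 4 and 2. The listed genes of that subset that reached the minimum count were Notch2, at 99.3 and 72.6 CPM, and Nr4a3, at 39.5 and 31.4 CPM. Of genes associated with the other subset, Ccr2 stood at 946 and 780 CPM and Csf1r at 132 and 137 CPM. Of the others, Tmem176b was at 269 and 216 CPM, Tmem176a at 227 and 170.4 CPM, Clec12a at 86.6 and 71.9 CPM and Fcrls at 6.37 and 7.68 CPM.

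Summed over all cells, identity genes stayed within 2-fold between the libraries. All 18 cDC2 identity genes passed the minimum count, none was past 2-fold in either direction, and 4 of 18 lay above 0, with a median of -0.18. Sirpa, an inhibitory receptor used to define cDC2, measured 243 and 214 CPM, Itgam (CD11b) 342 and 303 CPM and Itgax (CD11c) 208 and 148 CPM. Zbtb46, a transcription factor of conventional dendritic cells, was at 42.0 and 40.5 CPM, and Irf4, which cDC2 need, at 56.7 and 51.0 CPM. Klf4 was at 327 and 224 CPM. Not all of these genes set cDC2 apart from other gates. Sirpa was higher in monocytes (342 and 361 CPM), as was Itgam (487 and 627 CPM), and Zbtb46 was higher in cDC1 (58.9 and 58.8 CPM). Itgax, Irf4 and Klf4 were higher in cDC2 than in cDC1, migratory dendritic cells and monocytes of the same library. Between the libraries these genes differ by less than 2-fold over all cells, but within a sex some do not. Log2 ratios in Xist cells and in Y cells were -1.43 and 1.13 for Zbtb46, -1.06 and 0.18 for Itgax and 0.63 and -1.29 for Itgam. Irf4 was at 9.79 and 52.7 CPM in Xist cells (2 and 66 UMIs) and at 69.0 and 23.8 CPM in Y cells (70 and 2 UMIs). The log2 ratio of the marker Mgl2 was -0.37 in Xist cells and -2.15 in Y cells, the latter from 768 and 14 UMIs.

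Summed markers of other cells differed widely by cell type. The B cell, T cell and macrophage lists include CD79 genes, CD3 genes with Foxp3, and C1q genes. The choice of cells limits these genes, so those sums are partly set by it. B cell genes summed to 17.2 and 9.08 CPM, mast cell and basophil genes to 1.27 and 2.10 CPM, and haemoglobin genes to 0 and 1.40 CPM. T cell genes summed to 62.4 and 71.2 CPM. Neutrophil genes summed to 594 and 150 CPM, and 515 of the 652 control UMIs of S100a8 and S100a9 lay in 1 cell. Macrophage genes summed to 859 and 1513 CPM, with Apoe at 80.2 and 332 CPM and Spp1 at 43.3 and 485 CPM, and 10 cells of the library labelled knockout held 10 or more UMIs of these 2 genes, against 3 control cells. In Xist cells Spp1 had 4 and 692 UMIs, and in Y cells 32 and 0, which is too few for a ratio. Melanoma genes summed to 35.0 and 715 CPM. Monocyte genes summed to 3770 and 3353 CPM, of which Lyz2 gave 1287 CPM in the control library.

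At the lower edge of the choice, 21 control cells and 17 of the library labelled knockout held exactly 3 Cd209a UMIs, and 28 and 25 cells that met every other limit held 2. Cells just inside had 581 and 517 CPM of Mgl2 and 434 and 238 CPM of Clec10a. Cells just outside had 1109 and 208 CPM of Mgl2 and 309 and 142 CPM of Clec10a. Both lectins were found on either side of the limit, and Mgl2 was higher outside it in the control and lower outside it in the library labelled knockout. A member held a median of 9 Cd209a UMIs in each library, with a range of 3 to 38 and of 3 to 47.

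Antiviral interferon-stimulated genes were higher as a group in the library labelled knockout. Of 35 listed genes, 34 are in the feature table and 33 passed the minimum count. All 33 stood above 0 in log2 ratio, 22 of them past 2-fold, where 1.76% of all genes were, and none was lower past 2-fold. Their median log2 ratio was 1.24, against -0.003 over all genes, and their summed level was 5387 CPM (control) and 10081 CPM. The list median was 1.23 in Xist cells, with 20 of 33 past 2-fold where 8.28% of all genes were. In the 123 and 11 Y cells it was 0.70, with 6 of 23 past 2-fold where 5.06% of all genes were, and 18 of 23 above 0. Only 23 of the 33 genes reached the minimum count in Y cells, so that median covers a smaller set.

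**Figure D2:**
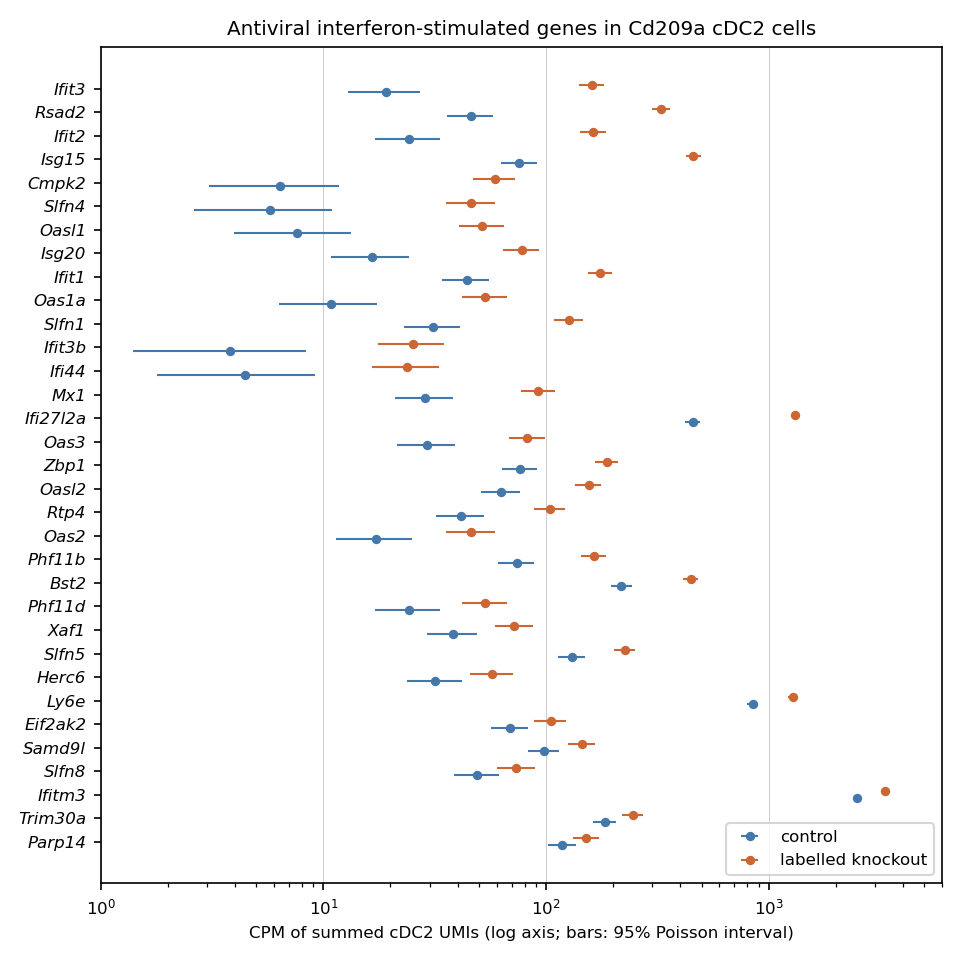
Level of the 33 antiviral list genes in summed cDC2 cells, in CPM on a log axis, with exact 95% Poisson intervals; control in blue, labelled knockout in orange, 1 library each, ordered by log2 ratio. Each gene lies to the right in the library labelled knockout, from Ifit3 (19.1 and 161 CPM) to Parp14 (118 and 151 CPM).

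The sharpest differences were in genes at low level in the control cells. Ifit3, whose protein binds viral RNA with its relatives, was at 19.1 and 161 CPM (8.41-fold, 5.73 to 12.8). Rsad2, which encodes the antiviral enzyme viperin, was at 45.8 and 328 CPM (7.16-fold), but 1 control cell held 53 of the 72 control UMIs. Isg15 was at 75.8 and 459 CPM (6.06-fold, 4.98 to 7.43), with 5.70-fold in Xist cells and 2.01-fold (0.874 to 4.11) in Y cells. It was seen in 55 of 192 and 77 of 147 cells, and the cells with the most Isg15 held 19.3% and 21.6% of its UMIs. Ifit2 was 6.73-fold higher and Cmpk2, a nucleotide kinase beside Rsad2, was 9.22-fold higher. Ifit3 shares sequence with Ifit3b, and Oas1a with Oas1g, so their split is uncertain.

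Genes already high in the control cells differed less. Ifi27l2a stood at 455 and 1312 CPM (2.88-fold, 2.64 to 3.15) and was seen in 118 of 192 and 135 of 147 cells. Bst2, the tetherin that holds budding virus at the membrane, stood at 218 and 446 CPM (2.05-fold). Ly6e was at 847 and 1280 CPM (1.51-fold) and Ifitm3, which blocks virus entry, at 2500 and 3325 CPM (1.33-fold). After thinning to 1000 UMIs, an Ifi27l2a UMI was found in 28.1% and 57.8% of cDC2 cells and in 15.7% and 32.7% of B cells. For Isg15 these shares were 6.77% and 19.0% of cDC2 cells and 0.532% and 1.67% of B cells.

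Promoters of 4 of the antiviral list genes higher past 2-fold are shown. They were searched for the core of the interferon-stimulated response element, the site bound by ISGF3. The genes are the 4 with the most UMIs among those in the RefSeq promoter table (GRCm38.p6), chosen without regard to a match. Ifi27l2a and Zbp1 are not shown. The 250 bases before each start are printed 5' to 3' on the gene's strand, with each match to GAAANNGAAA on either strand in capitals. The genes all lie on the minus strand, at chr4:156200819-156201068 for Isg15, chr12:26456453-26456702 for Rsad2, chr8:71537473-71537722 for Bst2 and chr14:59341331-59341580 for Phf11b.
Isg15: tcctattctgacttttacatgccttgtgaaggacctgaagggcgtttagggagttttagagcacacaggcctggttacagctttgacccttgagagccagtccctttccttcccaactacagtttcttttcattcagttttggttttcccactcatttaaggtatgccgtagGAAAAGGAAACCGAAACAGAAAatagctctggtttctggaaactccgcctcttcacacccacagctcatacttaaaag
Rsad2: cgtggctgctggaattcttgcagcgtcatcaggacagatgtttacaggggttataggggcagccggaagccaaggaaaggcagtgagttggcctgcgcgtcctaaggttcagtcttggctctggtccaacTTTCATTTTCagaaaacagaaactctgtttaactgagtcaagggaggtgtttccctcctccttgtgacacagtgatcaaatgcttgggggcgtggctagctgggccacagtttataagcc
Bst2: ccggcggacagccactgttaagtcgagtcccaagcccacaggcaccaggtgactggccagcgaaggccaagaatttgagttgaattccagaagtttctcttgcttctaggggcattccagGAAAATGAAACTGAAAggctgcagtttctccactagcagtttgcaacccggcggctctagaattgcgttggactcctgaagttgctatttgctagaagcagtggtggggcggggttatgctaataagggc
Phf11b: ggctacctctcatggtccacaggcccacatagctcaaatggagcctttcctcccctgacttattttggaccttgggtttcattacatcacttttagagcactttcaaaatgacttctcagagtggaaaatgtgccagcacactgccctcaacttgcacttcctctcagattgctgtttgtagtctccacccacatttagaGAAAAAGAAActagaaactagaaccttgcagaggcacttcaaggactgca
Isg15 holds 3 overlapping matches between 57 and 78 bases before the start, and Bst2 holds 2 overlapping matches between 115 and 130. The sequence at the Bst2 start was not found in a GENCODE transcript of the gene, so its distances count from the RefSeq start only. Rsad2 holds 1 match on the opposite strand, 111 to 120 bases before the start, and Phf11b holds 1, at 41 to 50. A match was found in 13 of the 27 antiviral list genes in the table (48.1%), in 936 of all 27025 genes (3.46%) and in 214 of the 6508 tested genes within 2-fold (3.29%). Of the list genes higher past 2-fold, 9 of 17 held a match, and of those under 2-fold, 3 of 9. Of the MHC class II list, 1 of 10 genes held one, and none of the 4 given markers in the table did. A match in these bases is a description of the letters and not a measured site.

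Of the ISG15 conjugation genes, Isg15 itself and Ube2l6, its conjugating enzyme, were higher past 2-fold, with Ube2l6 at 21.6 and 49.6 CPM (2.29-fold). Uba7, the activating enzyme, was at 27.4 and 38.4 CPM (1.40-fold, 0.925 to 2.14), and the ligase gene Herc6 was at 31.8 and 57.3 CPM (1.80-fold). Trim25 was at 51.6 and 67.8 CPM. With Usp18, 3 of 6 genes of this list were higher past 2-fold, where 1.76% of all genes were, and all 6 stood above 0. In Y cells, with 2 to 6 UMIs per gene in the library labelled knockout, the log2 ratios were 0.47 for Ube2l6, 0.51 for Uba7 and 0.99 for Herc6.

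The receptor and its signalling chain were near equal. Ifnar1 was at 77.0 and 80.3 CPM, Ifnar2 at 64.9 and 66.4 CPM, Jak1 at 166 and 149 CPM and Tyk2 at 58.6 and 48.9 CPM. Irf9 was at 79.6 and 83.8 CPM. Stat2 was 1.55-fold higher, under the 2-fold limit. Past 2-fold were Irf7, an interferon-induced factor that drives interferon genes, at 49.0 and 227 CPM (4.63-fold, 3.60 to 6.02), and Socs1, an inhibitor of JAK kinases, at 8.91 and 38.4 CPM (4.31-fold). The Irf7 log2 ratio was 1.74 in Xist cells and 2.70 in Y cells. Over the 9 genes of this list the median was 0.07 and 2 were higher past 2-fold, where 1.76% of all genes were. Factors outside this complex, Irf1, Irf2, Irf3, Irf4, Irf5 and Irf8, had a median of 0.03 with none past 2-fold.

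Among nucleic acid sensors 5 of 14 tested genes were higher past 2-fold, where 1.76% of all genes were, and none was lower. The 5 were Ddx58 (RIG-I, a sensor of viral RNA), at 33.7 and 73.3 CPM, Zbp1 at 76.4 and 187 CPM, and 3 p200-family genes. These were Ifi204, Ifi205 and Mnda, at 2.61-, 3.47- and 3.69-fold. Ifih1 (MDA5) was 1.75-fold higher. The DNA-sensing genes Mb21d1 (cGAS) and Tmem173 (STING) were at 29.9 and 35.6 CPM and at 109 and 97.1 CPM, and Aim2 was at 56.7 and 55.2 CPM. Genes of the p200 family resemble each other, so their split is uncertain. In Y cells the sign turned for Ifi205, to -0.99.

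Genes tied more to interferon gamma differed less. Of 18 tested, 3 were higher past 2-fold (Cxcl10, Igtp and Socs1), where 1.76% of all genes were. None was lower past 2-fold and the median was 0.26. Gbp2, a guanylate-binding protein, was at 91.0 and 94.99 CPM, Gbp7 at 66.2 and 101 CPM, Iigp1 at 16.6 and 20.3 CPM and Ciita at 300 and 264 CPM. Ifngr1, a receptor chain, was at 297 and 201 CPM. Cxcl10, a chemokine for CXCR3-bearing T cells, was at 101 and 390 CPM (3.85-fold), but it came from 7 control cells, 1 of which held 53.5% of the UMIs, and from 23 cells of the library labelled knockout. In Y cells its log2 ratio was -4.59, with no UMI in the 11 cells of the library labelled knockout. Cxcl9, which binds the same receptor, was at 222 and 172 CPM.

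In single cells the antiviral genes varied widely. After thinning each cell to 2000 UMIs, a control cell held a median of 9 antiviral list UMIs (quartiles 6 and 13, range 1 to 46, 192 cells). A cell of the library labelled knockout held a median of 16 (quartiles 11 and 25, range 2 to 113, 146 cells, with 1 cell left out as too shallow). The distributions overlapped, and the upper end differed most. Cells with 10 or more such UMIs were 47.9% (40.7 to 55.2) in the control and 81.5% (74.2 to 87.4) in the library labelled knockout. Cells with 50 or more were 0 of 192, which allows up to 1.90% at the upper interval bound, and 11 of 146 (7.53%). The tenth of cells with the most antiviral UMIs held 27.6% and 37.2% of them. In cells with Xist the medians were 9 and 15, and in Y cells 9 and 19.

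**Figure D3:**
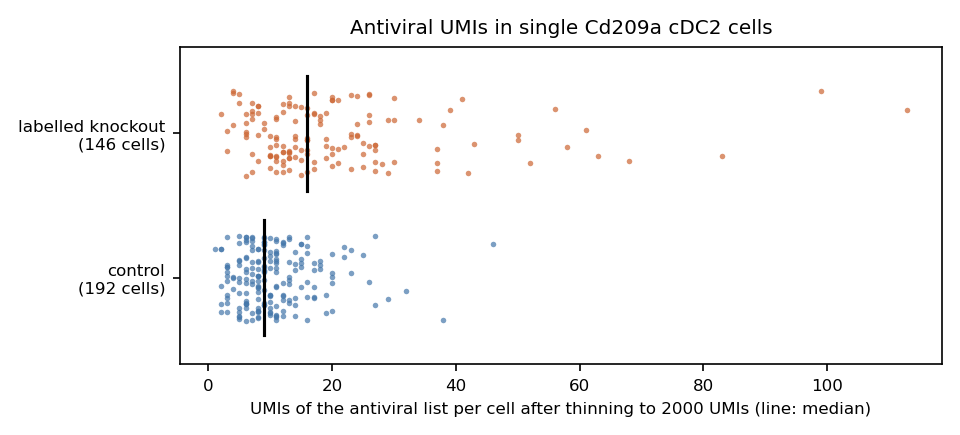
Antiviral list UMIs per cDC2 cell after thinning each cell to 2000 UMIs; each point is a cell, jittered in height, and the black line is the median of the library. The control median is 9 and that of the library labelled knockout is 16, and cells above 50 UMIs are only in the latter.

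A part of the cDC2 cells carried Ly6c2, a surface gene of inflammatory monocytes. With 3 or more Ly6c2 UMIs there were 13 of 192 cells (control) and 30 of 147 (labelled knockout), and Ly6c2 stood at 66.2 and 239 CPM (3.61-fold, 2.89 to 4.54). Fcgr1 (CD64), a high-affinity Fc receptor found on monocyte-derived cells and itself raised by interferon, stood at 81.5 and 227 CPM (2.79-fold, 2.26 to 3.45). Cells with neither transcript were 113 of 192 and 44 of 147. Other monocyte genes did not all move this way. Ms4a4c was 2.35-fold higher and Plac8 1.76-fold higher, while Ccr2 was at 946 and 780 CPM, Fn1 at 153 and 108 CPM and Chil3 at 60.5 and 21.7 CPM. After thinning to 1000 UMIs a Ly6c2 UMI was found in 3.65% and 18.4% of cDC2 cells and in 1.29% and 2.39% of B cells.

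The antiviral level was higher in Ly6c2-bearing cells within each library. Cells with 3 or more Ly6c2 UMIs held medians of 18 and 27 antiviral UMIs per 2000, against 9 and 13 where Ly6c2 was at 0. Between the libraries the list median was 0.83 within Ly6c2-bearing cells (13 of 31 past 2-fold, where 6.56% of all genes were) and 1.14 where Ly6c2 was at 0 (17 of 31, where 1.95% were). In the 113 and 44 cells with neither Fcgr1 nor Ly6c2 it was 0.53, with 6 of 22 genes past 2-fold where 1.39% of all genes were, and Usp18 stood at 16.7 and 34.2 CPM. The list median was lower where both transcripts were at 0 than in all cells, but fewer list genes reached the minimum count there. The medians therefore cover different sets of genes. What part this, monocyte RNA or interferon induction of Fcgr1 had in the difference was not tested. Across cells, antiviral UMIs and Ly6c2 had a Spearman correlation of 0.23 in the control library (192 cells) and 0.39 in the other (146 cells), given as a description of cells that share a library. With Fcgr1 it was -0.013 in the control and 0.35 in the library labelled knockout.

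Split on Ly6c2 within each library, cells with 3 or more UMIs against cells at 0, 83 of 6108 other genes were higher past 2-fold in both libraries (1.36%) and 114 were lower (1.87%), while 30 went opposite ways. Of 27 antiviral genes 15 were higher in both and none lower. Among the genes with the largest ratios in both were the CCR2-ligand genes Ccl12 and Ccl7 and also Plac8. Log2 ratios were 5.62 and 4.05 for Ccl12 and 2.50 and 2.02 for Plac8. In the control these ratios rest on 13 cells with Ly6c2, and no limit was set on the share of 1 cell. Ccl12 and Ccl7 came from few control cells, and 1 control cell held 53 of the 72 Rsad2 UMIs. Of 9 monocyte marker genes 7 were higher in both. Lower in both were 10 of 19 cell cycle genes, Mgl2 (-3.02 and -1.03) and Ccl17 (-3.67 and -2.52). H2-Ab1 was at -1.08 in the control and at -0.45 in the library labelled knockout. Median depth was 7522 against 7596 UMIs in the control library and 8193 against 8831 in the other.

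Cells were also split on Mgl2. With 3 or more Mgl2 UMIs there were 68 and 46 cells, and with none 109 and 90. Of 6242 genes, 28 were higher past 2-fold in both libraries (0.449%) and 15 lower (0.24%). The higher ones included Ear2, an eosinophil-associated ribonuclease (133.9 against 21.4 CPM among control cells and 136 against 2.75 CPM in the other), Ccl17, a CCR4 ligand (245 against 56.7 CPM and 358 against 88.1 CPM), Axl, a receptor for apoptotic cells, and Pltp. Cell cycle genes were among them (Hist1h1b, Hist1h2ae, Spc25, Cit and E2f1), and the cell cycle list had medians of 0.65 and 1.56, with 17 and 16 of 19 genes above 0. The lower ones included Cd7 (log2 -2.16 and -2.53), Flt3 (-1.39 and -1.87), Plac8 (-1.41 and -1.51) and Bcl11a. Cells with Mgl2 were deeper, with medians of 9001 against 6902 UMIs and 12506 against 6850, and its part in the split was not tested. Between the libraries the antiviral median was 1.52 in cells with Mgl2 and 1.29 in cells without.

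Some cDC2 cells carried mitosis transcripts. With 3 or more UMIs of Mki67, Top2a, Birc5, Cdk1 and Ube2c there were 21 control cells and 17 of the library labelled knockout. Of 5887 other genes, 174 were higher past 2-fold in both libraries (2.96%), among them Stmn1, Ccna2 and Cenpf, and 92 were lower (1.56%), among them Ly6c2, Pf4 and Ccl12. Antiviral UMIs per 2000 had medians of 10 and 11 in these cells, against 9 and 19 in cells with none. The cell cycle list was near equal between the libraries, with a median of 0.02 and none of 20 genes past 2-fold. Mki67 was at 114 and 119 CPM. In cells with Xist that median was -0.38 and in Y cells it was 0.36.

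**Figure D4:**
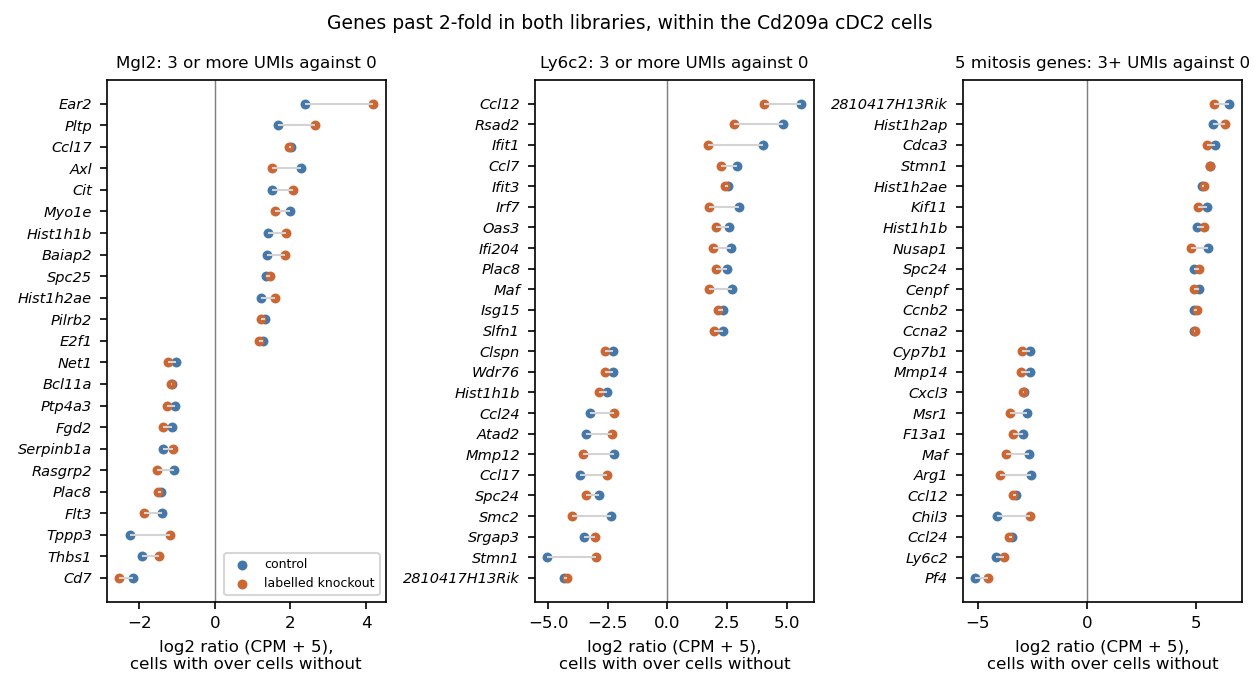
Genes past 2-fold in both libraries when cDC2 cells with 3 or more UMIs of Mgl2, of Ly6c2 or of 5 mitosis genes are set against cells with none, with up to 12 of them shown in each direction. Horizontal axes are log2 ratios of (CPM + 5) within the control library (blue) and within the library labelled knockout (orange). Isg15, Rsad2 and Ifit3 are on the high side of the Ly6c2 split and Flt3 is on the low side of the Mgl2 split. The control holds only 13 cells with Ly6c2, and 1 control cell held 53 of the 72 Rsad2 UMIs.

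The genes with the largest variance over mean among cells, after thinning to 2000 UMIs (the Fano factor), differed between the libraries. Among control cells Lyz2 led (13.2, against a median of 1.11 over 1093 genes), followed by Malat1, Ifitm1 and Tmsb4x, with Plac8 and Cd74 among the first 10. In the library labelled knockout Fth1 led (18.2, against a median of 1.15 over 846 genes), and Cxcl10, Il1b, Ccl2, Fabp5 and Isg15 were among the first 10. Ifitm1, seen in 42.7% and 51.4% of thinned cells, was in the first 3 of both libraries.

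MHC class II genes were near equal. Of 13 tested, none was past 2-fold and 3 were above 0, with a median of -0.11 against -0.003 over all genes. The alpha and beta chain genes H2-Aa, H2-Ab1 and H2-Eb1 stood at 7765 and 6547 CPM, 8554 and 7936 CPM and 7275 and 5943 CPM, so the ratios were 0.843, 0.928 and 0.817. Cd74, the invariant chain, was at 16314 and 14176 CPM. The peptide-loading gene H2-DMb1 was at 798 and 992 CPM. H2-Oa and H2-Ob, whose products hold back H2-DM, were at 167 and 86.6 CPM (0.519-fold, 0.416 to 0.645) and at 85.9 and 55.2 CPM. The H2-Oa log2 ratio of -0.91 was -1.54 in Xist cells and -0.28 in Y cells.

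MHC class I genes stood slightly higher. All 17 were tested, 13 were above 0, 1 was higher past 2-fold, where 1.76% of all genes were, and the median was 0.28. H2-K1 was at 1173 and 1449 CPM, H2-D1 at 1376 and 1854 CPM and B2m at 1411 and 1718 CPM. The immunoproteasome subunit Psmb8 was at 659 and 805 CPM and the transporter Tap1 at 200 and 214 CPM. The gene past 2-fold was H2-Q7, at 50.3 and 123 CPM (2.44-fold), whose near-identical neighbours make the count uncertain and whose log2 ratio was 0.01 in Xist cells. The list median was 0.10 in Xist cells and 0.02 in Y cells.

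Of 14 tested costimulatory and checkpoint ligand genes none was past 2-fold, 12 were above 0 and the median was 0.34. Cd86 was at 105 and 127 CPM, Cd40 at 37.6 and 65.0 CPM (1.73-fold, 1.23 to 2.44), Cd83 at 52.8 and 65.0 CPM and Cd274 (PD-L1) at 42.0 and 52.4 CPM. Vsir (VISTA) was at 122 and 88.0 CPM. The UMIs of these genes were few, with 1053 and 1145 in all.

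Of 9 tested cytokine genes 2 were higher past 2-fold, where 1.76% of all genes were. Il1rn, the antagonist of the interleukin-1 receptor, was at 9.55 and 58.7 CPM (6.14-fold), in 8 and 18 cells. Osm was at 21.01 and 58.7 CPM (2.79-fold, 1.85 to 4.31), in 18 and 35 cells. Il1b was at 203 and 363 CPM (1.79-fold, 1.55 to 2.06), in 72 cells of each library. Tgfb1 was at 211 and 212 CPM and Il16 at 38.8 and 20.3 CPM. The remaining listed cytokines, among them Il12b, Il6, Il10 and Il23a, did not reach the minimum count. The cytokine median was 0.66, with 1.12 in Xist cells and -0.56 in Y cells.

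Chemokine transcripts came from few cells. Ccl2 was at 216 and 434 CPM in 37 and 46 cells, Ccl4 at 43.3 and 139 CPM in 20 and 35 cells, and Ccl7 at 136 and 177 CPM in 5 and 21 cells. All 51 and 57 UMIs respectively of Ccl12 and Ccl24 in the control library came from 5 cells and 1 cell. Over 16 chemokine genes 4 were higher past 2-fold, where 1.76% of all genes were. The median was 0.17, with 1.93 in Xist cells and -0.72 in Y cells. Of 6 tested chemokine receptors none was past 2-fold, with Cx3cr1 at 77.0 and 55.9 CPM.

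Among growth factor receptors Flt3 was lower, at 84.7 and 51.0 CPM (0.602-fold, 0.446 to 0.807), with log2 ratios of -0.72 in Xist cells and -0.60 in Y cells. The GM-CSF receptor genes Csf2ra and Csf2rb were at 230 and 221 CPM and at 270 and 337 CPM. The median over 17 tested transcription factor genes was 0.03, and 1 was higher past 2-fold, where 1.76% of all genes were. That was Cebpb, at 118 and 254 CPM (2.15-fold). Its log2 ratio was 1.27 in Xist cells and -1.04 in Y cells. Id2, Spi1, Rbpj and Bcl6 lay between 1.01- and 1.14-fold.

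Among 18 tested C-type lectins and uptake receptors none was past 2-fold. Clec4n (dectin-2) was at 96.8 and 162 CPM and Cd14 at 46.5 and 85.2 CPM. Of 6 Fc receptor genes Fcgr1 alone was higher past 2-fold, where 1.76% of all genes were. Fcgr3 was at 102 and 165 CPM and the inhibitory Fcgr2b at 204 and 198 CPM. Of 12 lysosomal genes none was past 2-fold, with Ctsb at 451 and 712 CPM, Lgmn at 140 and 270 CPM (1.93-fold) and Ctss at 932 and 994 CPM. In the kynurenine pathway Kmo was 1.22-fold higher (1.04 to 1.45), Kynu was at 15.9 and 20.3 CPM and Haao at 23.6 and 18.9 CPM. Ido1, Ido2 and Tdo2 did not reach the minimum count.

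All 18 tested glycolysis and hypoxia genes stood higher, 4 past 2-fold where 1.76% of all genes were, with a median of 0.61. Gapdh was at 1407 and 2323 CPM, Ldha at 539 and 825 CPM, Bnip3 at 33.1 and 95.7 CPM and Hmox1 at 32.5 and 201 CPM. The cell with the melanoma transcripts held 22.9% of the Gapdh UMIs of its library and 19.1% of the list's, and 1 cell held 80.6% of the Hmox1 UMIs. Without the cells that held 10 or more UMIs of melanoma genes, of Apoe and Spp1, or of S100a8 and S100a9 (4 control cells and 10 others), the list median was 0.34 and the Hmox1 log2 ratio 0.63, while the antiviral median was 1.31. The glycolysis median was 1.16 in Xist cells and -0.41 in Y cells. Dissociation stress genes had a median of -0.03 with none of 17 past 2-fold, Fos at 761 and 483 CPM and Egr1 at 59.2 and 123 CPM.

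**Figure D5:**
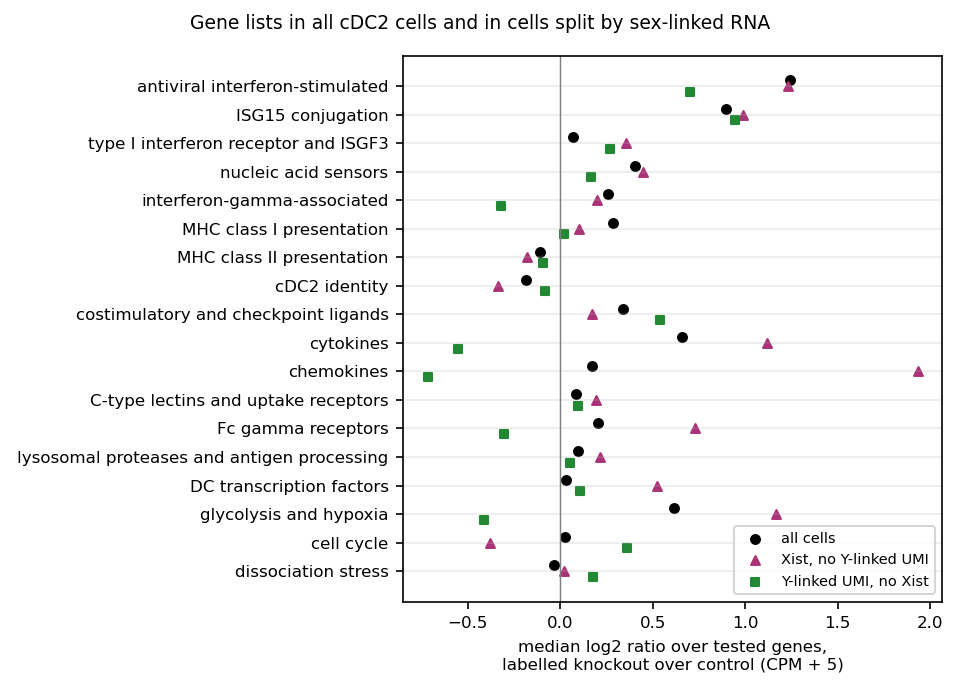
Median log2 ratio of (CPM + 5), library labelled knockout over control, over the tested genes of 18 lists in all cDC2 cells (circles), in Xist cells (triangles) and in Y cells (squares). The antiviral median is 1.24, 1.23 and 0.70, MHC class II lies between -0.18 and -0.09, and the chemokine and glycolysis medians change sign between the 2 kinds of cell.

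Outside the lists, the genes with the largest ratios in which no cell held over 20% of the UMIs were Gm4955, Pydc4, Mxd1, Pxdc1, Ramp3, Fabp5, Sdc4, Mmp14, Pyhin1 and Bcl2l1. Pyhin1, of the p200 family, was at 67.5 and 166 CPM (2.45-fold, 1.94 to 3.11), with log2 ratios of 1.46 and 1.21 in Xist cells and with Y-linked UMIs. Pydc4 was at 19.1 and 76.8 CPM and Mxd1, a partner of MAX, at 26.1 and 83.1 CPM. Fabp5, a fatty acid-binding protein, was at 255 and 638 CPM, with log2 ratios of 2.03 and -1.15 in the 2 kinds of cell. The lowest ratios were in Cd33, Foxk1, Klhl24, Sirpb1b, Satb1, Fbxl20, Uvssa, Chst15, Deptor and Klhl6. Cd33, an inhibitory sialic acid-binding receptor, was at 53.5 and 16.1 CPM (3.33-fold lower, 2.08 to 5.53), with log2 ratios of -1.90 and -3.54, and Klhl6 was at 43.9 and 17.5 CPM, with -1.55 and -1.60. Sirpb1b resembles its neighbours and is uncertain.

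The antiviral median of cDC2 lay among those of the other gates. It was 0.81 in cDC1 (13 of 30 genes past 2-fold, where 1.18% of all genes were), 1.20 in macrophages (23 of 34, where 0.722% were), 1.71 in monocytes (30 of 34, where 2.8% were) and 2.02 in migratory dendritic cells (28 of 31, where 3.45% were). In B cells it was 0.84 (14 of 30, where 0.972% were). Isg15 stood at 59.6 and 170 CPM in cDC1, 109 and 1330 CPM in monocytes and 539 CPM in macrophages of the library labelled knockout. With 1 library per group the differences between gates were not tested. The MHC class II median was -0.06 in cDC1, -0.56 in macrophages, 0.51 in monocytes and 0.31 in migratory dendritic cells.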

How the data were processed

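Single-cell RNA of live CD45-positive tumor cells was measured in 2 libraries, control and labelled knockout, with 1 library of 4 pooled tumors per group. The authors deposited whole-number UMI counts for each gene in each barcode, made with Cell Ranger 3.0.1 on mm10, per the submitters' processing notes and the file headers. No normalization was applied to them. Barcodes passed with 200 or more genes and no more than 10% of UMIs from mitochondria, and the members were taken by the count limits given above. No doublets were removed in the main values. Counts were summed per library, with Poisson intervals for CPM, Clopper-Pearson intervals for shares and exact conditional binomial intervals for ratios of CPM. With 1 library per group no test was run, and p-values cannot be given. Ratios used a pseudocount of 5 CPM and at least 20 UMIs. Genes outside the lists needed at least 50 UMIs and at most 20% of them in 1 cell, and the 10 largest ratios each way are named. Motifs were searched in RefSeq promoters, and coordinates came from GENCODE M21 (27722 of 27998 genes matched by identifier). The members and lists were chosen with earlier results of these data known. The Mgl2, Ly6c2 and mitosis splits were set after values were seen. The calculation was tested on simulated data. Mx2, Clec7a and Acod1 are not analysed here. Python 3.11.15, numpy 2.4.6, scipy 1.17.1, pandas 2.3.3 and scanpy 1.11.5 were used. Some items are not reported here.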

Additional observations from a re-analysis of the deposited data

Results flagged for a closer look

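The library labelled knockout held Xist at 872 CPM in its cDC2 cells, against 176 CPM in the control. Xist served above to split the cells by sex, and Xist cells were 123 of 147 in that library and 26 of 192 in the control. Between the libraries, several values moved in opposite directions in Xist cells and in Y cells; only 26 control Xist cells and 11 Y cells of the library labelled knockout lie behind them, and the difference was not tested. The log2 ratio of the cDC2 share was 1.01 in Xist cells and -1.22 in Y cells. List medians that lay on opposite sides of 0, each by at least 0.25 and with at least 5 tested genes in either kind of cell, were those of migratory dendritic cell markers (0.60 in Xist cells and -0.47 in Y cells), macrophage markers (1.87 and -0.53) and chemokines (1.93 and -0.72). The same held for interferon regulatory factors outside ISGF3 (0.64 and -0.26), Fc gamma receptors (0.73 and -0.30), glycolysis and hypoxia genes (1.16 and -0.41) and cell cycle genes (-0.38 and 0.36). With fewer tested genes, cytokines (1.12 and -0.56) and neutrophil markers (-3.84 and 1.26) also lay on opposite sides. The antiviral median had the same sign in both, 1.23 and 0.70.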

How the results depend on the processing

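No paired analysis was possible because each group is 1 library. Over 21 alternatives the MHC class II median was between -0.21 and -0.04 and the antiviral median between 0.53 and 1.46. Over 19 alternatives Usp18 was between 0.85 and 1.95 in log2 ratio. Counts of genes past 2-fold, 151 higher and 55 lower, were 243 and 157 with a pseudocount of 1 CPM, 68 and 8 with 20 CPM, and 69 and 10 with at least 100 UMIs. Thinning each cell to 2000 UMIs gave 106 lower. Of the genes called, 73.3% were higher, against 60.8% with 1 CPM, 89.5% with 20 CPM, 87.3% with 100 UMIs, 64.3% with the mean of per-cell CPM and 58.3% after thinning. A mitochondrial limit of 5% gave a log2 ratio of the cDC2 share of -0.52, -0.072 for the melanoma marker median and -0.14 for Gpnmb, which was -0.12 without Scrublet doublets. In Xist cells the share ratio was 1.01, Usp18 1.15, and 569 genes were higher and 210 lower, with Chil3 at 1.47, Pxdc1 at -0.25 and Uvssa at 0.45, opposite to all cells. In Y cells the share ratio was -1.22, the antiviral median 0.70, and 305 genes were higher and 927 lower. Opposite to all cells there were the neutrophil median (1.26), Cebpb (-1.04), Apoe (-0.22), Slfn1 (-0.22), Ifi205 (-0.99), Igtp (-2.70), Cxcl10 (-4.59), Ccl4 (-0.66), Bnip3 (-3.09) and Fabp5 (-1.15). Cd14, under 2-fold in all cells, had 42 and 1 UMIs in Y cells, and Spp1 32 and 0. Of the 21 alternatives, 3 were chosen after seeing the data, and they are given next. These 3 hold the lowest antiviral median (0.53), the lowest Usp18 log2 ratio (0.85) and the highest MHC class II median (-0.04). Without the 5 cells of each library with the most antiviral UMIs the antiviral median was 1.24, and 135 genes were higher and 54 lower. Without cells rich in melanoma, Apoe and Spp1, or S100a8 and S100a9 transcripts the melanoma median was -0.15, and 107 genes were higher and 58 lower, with 85 of the 151 kept. With Fcgr1 and Ly6c2 at 0 the share ratio was -1.05, Usp18 0.85, the antiviral median 0.53, and 88 genes were higher and 170 lower, with Pydc4 at -0.28. The cause of these shifts was not tested.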
